A study of Mus musculus with 4 samples.

Results

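S100a11 and S100a10 are neighbouring genes on mouse chromosome 3, and the regulatory region E11 lies at the S100a10 start. The set described here holds every chromatin contact with at least one restriction fragment in the 93.3 to 93.4 Mb window (mm9) that carries these genes. It was chosen by genomic position, with no measured value used. The window held 31 of the 712 assayed fragments, 15 read with forward and 16 with reverse probes, and 9288 of the 111588 contacts listed in any library had a fragment there.

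S100 proteins are small proteins with a pair of EF-hand motifs, which bind calcium in most members of the family. Most of their genes lie in a cluster at one end of the epidermal differentiation complex (EDC), the locus that also holds the loricrin, involucrin, small proline-rich (Sprr), late cornified envelope (Lce) and filaggrin genes of the outer epidermis. S100a10 and S100a11 sit at the other end of the complex, apart from that cluster. S100A10 (p11) binds annexin A2 at the plasma membrane, and S100A11 (calgizzarin) binds annexin A1 and is among the proteins built into the cornified envelope of keratinocytes.

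Contacts were measured with 5C, in which DNA fixed with formaldehyde is cut with HindIII, ligated, and read with forward and reverse probes at fragment ends, so that only forward with reverse pairs are seen. The probes covered the EDC and its surroundings on chromosome 3, and the comparison asks how the locus folds in epidermal cells, which express its skin genes, and in a cell type of another lineage. There were 2 libraries of primary epidermal keratinocytes and 2 libraries of primary thymocytes, the latter the whole T cell population of the thymus, all labelled as from newborn C57BL/6 mice. The keratinocytes were plated for 15 h at 32 °C, and all cells were fixed in 1% formaldehyde for 10 min. No genetic change or drug treatment was labelled in either group. The methods describe the libraries of a cell type as biological replicates, without saying how many animals each came from. The deposited contact files analysed here carry no expression values, so the cell types were not checked against their markers.

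S100a11 (ENSMUSG00000027907) occupies chr3:93324410-93330209 and S100a10 (ENSMUSG00000041959) chr3:93359002-93368565, both on the plus strand, with starts 34.6 kb apart. E11, at chr3:93356039-93364208, spans 8170 bp, begins 2963 bp before the S100a10 start and overlaps 5207 bp of S100a10, including 2 of its exons. Fragments within 10 kb of a gene start or an enhancer were assigned to it. This gave 9 fragments to E11, 4 of which overlap it, and 10 to the S100a11 start, with 0 fragments in both sets. The S100a10 start lies inside one of the E11 fragments, FOR_1149, so contacts of E11 and of the S100a10 promoter cannot be told apart. The S100a11 start itself lies in a gap of 3744 bp with no assayed fragment, between REV_1134 and FOR_1136.

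The contacts described below turn on a few fragments, and the 30 genomic bases of their probes are shown because these bases decide which fragment end was read. Capitals mark the 3 bases that each probe holds of the HindIII site AAGCTT, at which the probes are ligated. All 31 window fragments began and ended at this site with none inside. FOR_1151 (probe at chr3:93362371-93362400, plus strand) is an intron fragment of S100a10 inside E11, and FOR_1149 (chr3:93359433-93359462, plus strand) holds the S100a10 start. REV_1143 (chr3:93332432-93332461, minus strand) lies downstream of S100a11 and REV_1134 (chr3:93321739-93321768, minus strand) just upstream of its start.
FOR_1151: tagagatgccagattcaagttcctgaaAAG
FOR_1149: cgctctgtcctagttggcagttccatgAAG
REV_1143: CTTacaactaggcagaagaggacagtagag
REV_1134: CTTtttggaaaaaggtagtcagaccaaggt

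The 250 bases before each gene start are given to show the promoters of the genes the window is named for. The S100a10 promoter lies in FOR_1149, and that of S100a11 in the gap with no assayed fragment, so no contact was read at it. Capitals mark TGANTCA, the letters bound by AP-1 factors, which read the same on both strands. The S100a11 promoter (chr3:93324160-93324409, plus strand) held 2 matches, the first beginning 128 bases before the start. The S100a10 promoter (chr3:93358752-93359001, plus strand) held 0. Their GC contents were 58.0% and 58.4%, and TATAAA was found in neither on either strand. Across the same 250 bases of 22380 protein-coding genes, 6% held TGANTCA and 12.3% held TATAAA. In E11 the motif occurred 8 times, against a median of 2 in 648 windows of the same length across the locus, of which 7 (1.08%) held as many. A match of these letters is a description of the sequence only.
S100a11 promoter: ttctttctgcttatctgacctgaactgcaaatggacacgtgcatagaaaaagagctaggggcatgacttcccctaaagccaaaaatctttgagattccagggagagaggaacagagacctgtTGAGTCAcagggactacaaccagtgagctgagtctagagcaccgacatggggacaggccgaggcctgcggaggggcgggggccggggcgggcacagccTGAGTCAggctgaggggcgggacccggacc
S100a10 promoter: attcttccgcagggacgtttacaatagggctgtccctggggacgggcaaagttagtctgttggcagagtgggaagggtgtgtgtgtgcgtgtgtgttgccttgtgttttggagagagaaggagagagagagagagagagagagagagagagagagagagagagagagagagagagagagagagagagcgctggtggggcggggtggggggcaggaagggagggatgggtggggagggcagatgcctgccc

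Each deposited contact has a corrected frequency, a frequency expected at its distance, and a Z score, the difference between them in units of the expected standard deviation. A Z score of 0 thus marks a contact as frequent as others at the same distance in the same library. A contact was called in a cell type where the deposited q-value was under 0.05 in both of its libraries. The keratinocyte libraries listed 7635 and 5207 contacts of the window and the thymocyte libraries 4004 and 4814, out of 95692, 67210, 45861 and 53420 contacts in all. A total of 4225 were listed in both keratinocyte libraries, 2730 in both thymocyte libraries and 1735 in all 4. Read depth is unknown, since no counts are given. FOR_1128 and FOR_1146 had no contact in either keratinocyte library, REV_1132 and REV_1148 none in keratinocyte library 1, and REV_1137 none in thymocyte library 2.

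By Z scores, the libraries grouped by cell type only in part. Over the 1735 contacts listed in all 4, Z scores of keratinocyte library 2 had a Pearson correlation of 0.364 with thymocyte library 1 and 0.223 with keratinocyte library 1. The same order held over all 23395 such contacts of the locus, at 0.362 and 0.278. The thymocyte libraries correlated at 0.266 over the window, above the 0.117 and 0.232 of thymocyte library 2 with the keratinocyte libraries. Keratinocyte library 1 was also closest to its own cell type, at 0.223 against 0.0201 and 0.117 with the thymocyte libraries. In the paper, raw counts correlated more within each cell type than between them. Contacts share fragments and are not independent, so these values are descriptions, and results below are given for each library and without each library where that changes them.

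Contacts of the S100a11 to S100a10 window were called about as often as contacts anywhere in the locus. In keratinocytes 67 of 4225 (1.59%) were called, against a background of 1.99% over all contacts, and in thymocytes 104 of 2730 (3.81%), against 4.03%. Of the 1735 contacts listed in all 4 libraries, 24 (1.38%, background 1.45%) were called in keratinocytes only, 48 (2.77%, background 3.19%) in thymocytes only and 6 (0.346%, background 0.581%) in both. The total called in either cell type was 165, of which 37 keratinocyte calls were not listed in both thymocyte libraries and 50 thymocyte calls were not listed in both keratinocyte libraries. For those contacts a call in 1 cell type says nothing about the other.

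The average contact of the window also stood close to the rest of the locus. Mean Z scores over the 1735 contacts were 0.437 and 0.587 in keratinocytes and 0.647 and 0.588 in thymocytes, which gives 0.512 ± 0.106 and 0.617 ± 0.0419 (SD, n = 2 libraries each). Over all contacts the 4 libraries had 0.515, 0.577, 0.613 and 0.701. The keratinocyte libraries were lower than the thymocyte libraries by a narrow margin in both cases, with a difference of -0.105 in the window and -0.111 over all contacts. With 2 libraries against 2, the smallest two-sided exact permutation p is 0.333, so no difference between library means can pass a threshold of 0.05 here. Taken over the contacts that each library listed, the window difference was -0.316, the median over contacts gave 0.0024, and fragments with at least 100 listed contacts in every library gave -0.00858, with the cell types overlapping.

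Beneath this average, the sign of the difference between the cell types changed with distance along the chromosome, as the plot of mean Z scores by distance shows. Contacts inside the window and with its flanks had higher Z scores in thymocytes. Contacts with the distant S100 cluster and the rest of its domain had higher means in keratinocytes over the contacts listed in all 4 libraries. At distances of 3 Mb and more the window had mean Z scores of 1.27 and 0.997 in keratinocytes and 0.792 and 0.912 in thymocytes, above the 0.484, 0.607, 0.387 and 0.455 of all contacts at such distances.

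**Figure D1:**
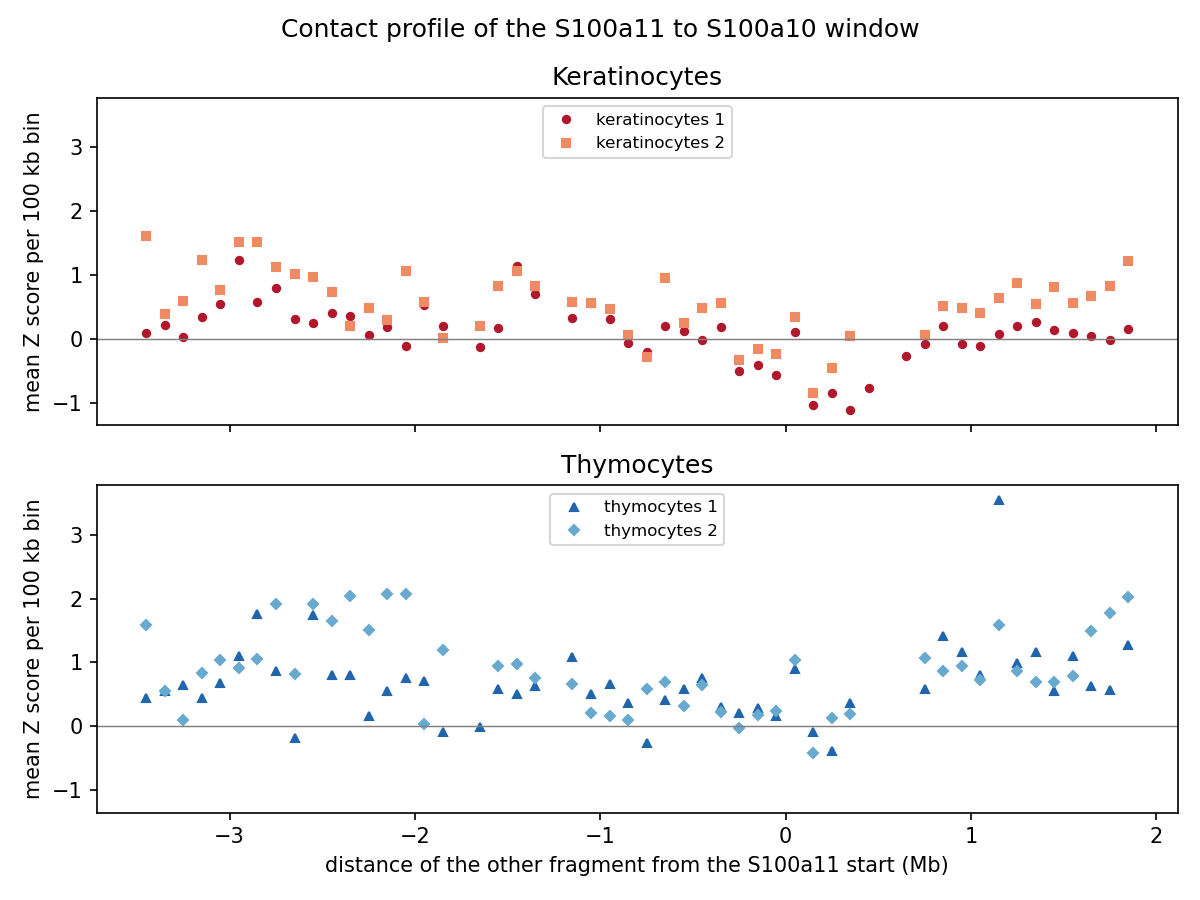
Mean Z score of contacts of the S100a11 to S100a10 window (vertical axis) by distance of the other fragment from the S100a11 start (horizontal axis, Mb), in bins of 100 kb, with 1 point per library, keratinocytes in the upper and thymocytes in the lower panel, and bins of under 10 contacts left out. Means were taken over the contacts that each library listed. In the 100 kb after the S100a11 start the thymocyte libraries were at 0.902 and 1.03 and the keratinocyte libraries at 0.105 and 0.348, and in the next 100 kb the keratinocyte libraries were at -1.03 and -0.848.

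Contacts with both fragments inside the window had higher mean Z scores in thymocytes than in keratinocytes. Over the 46 inner contacts listed in all 4 libraries, mean Z scores were 0.286 and 0.594 in keratinocytes and 1.36 and 1.76 in thymocytes, or 0.440 ± 0.218 and 1.56 ± 0.278 (SD, n = 2 libraries each). The cell types did not overlap, and the difference of -1.12 was larger than either spread, but its exact permutation p is the 0.333 that this design allows at best. All contacts of the locus over the same distances had 0.487 and 0.548 in keratinocytes and 0.560 and 0.634 in thymocytes. Leaving out 1 library at a time gave differences from -1.32 to -0.923, and the contacts listed in each library gave -0.701. The median over contacts gave -0.359.

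The calls inside the window followed the same order. In keratinocytes 2 of 82 inner contacts (2.44%, background 2.73% at these distances) were called, and in thymocytes 14 of 95 (14.7%, background 5.37%). Fragments with few listed contacts tended to have high Z scores: across window fragments, the Spearman correlation between contacts listed and mean Z score was -0.277, -0.711, -0.559 and -0.664 in the 4 libraries over 27 to 31 fragments. When only the 14 window fragments with at least 100 listed contacts in every library (well-listed fragments) were kept, 0 of 29 inner contacts were called in keratinocytes and 2 of 39 (5.13%) in thymocytes, where 3.61% of all contacts between such fragments at these distances were called. The mean Z scores then were -0.0655 and 0.121 in keratinocytes and 0.653 and 0.843 in thymocytes. The part of fragment listing in the thymocyte calls was not tested further. Of the 14 thymocyte calls, 10 had a fragment past the end of S100a10 and 6 had the E11 fragment FOR_1151.

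Lower inner Z scores in keratinocytes were also seen in neighbouring 100 kb windows. The inner contacts of 93.1 to 93.2 Mb had mean Z scores of -0.307 ± 0.352 in keratinocytes and 0.231 ± 0.0625 in thymocytes, and those of 93.2 to 93.3 Mb had -0.204 ± 0.0262 and 0.380 ± 0.0537 (SD, n = 2 libraries each). The differences of -0.538 and -0.584 had the direction of the S100a11 to S100a10 window, and the cell types overlapped in neither. These windows and the one after had at most 1 inner call in either cell type.

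Contacts between E11 and the S100a11 start were few, and a pair of them stood out. Of 41 such contacts listed in any library, both libraries listed 18 in keratinocytes and 12 in thymocytes, and 2 (11.1%) and 1 (8.33%) of these were called, where all contacts spanning the inner distances had 2.73% and 5.37%. Only 5 were listed in all 4, with mean Z scores of 1.28, 0.740, 1.86 and 2.16. Values of uncalled contacts reached from -2.37 in thymocyte library 2 (FOR_1156 with REV_1134) to 4.31 in the same library (FOR_1151 with REV_1134).

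The strongest contact of this pair joined the intron fragment FOR_1151 inside E11 to REV_1143, downstream of S100a11 and 28 kb away. Its corrected frequency was 5150 and 2280 in the keratinocyte libraries, where 1370 and 806 were expected, and 3050 and 2650 in the thymocyte libraries, where 873 and 911 were expected. The Z scores were 6.49 and 4.09 in keratinocytes and 6.31 and 4.75 in thymocytes, so it was called in both cell types. All 4 libraries were high and the cell types overlapped, with a difference of -0.24 (exact permutation p = 1; limma adjusted p = 0.988).

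The second called contact joined FOR_1149, which holds the S100a10 start, to REV_1134 upstream of the S100a11 start at 29 kb. It had Z scores of 2.75 and 5.44 in keratinocytes, from frequencies of 2980 and 2760 where 1330 and 790 were expected. Thymocyte library 2 had a Z score of 6.56, from 3080 against 884, and thymocyte library 1 did not list the contact. It was therefore called in keratinocytes, and no comparison with thymocytes could be made. The first of these contacts is drawn in the plot of Z scores of called contacts.

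**Figure D2:**
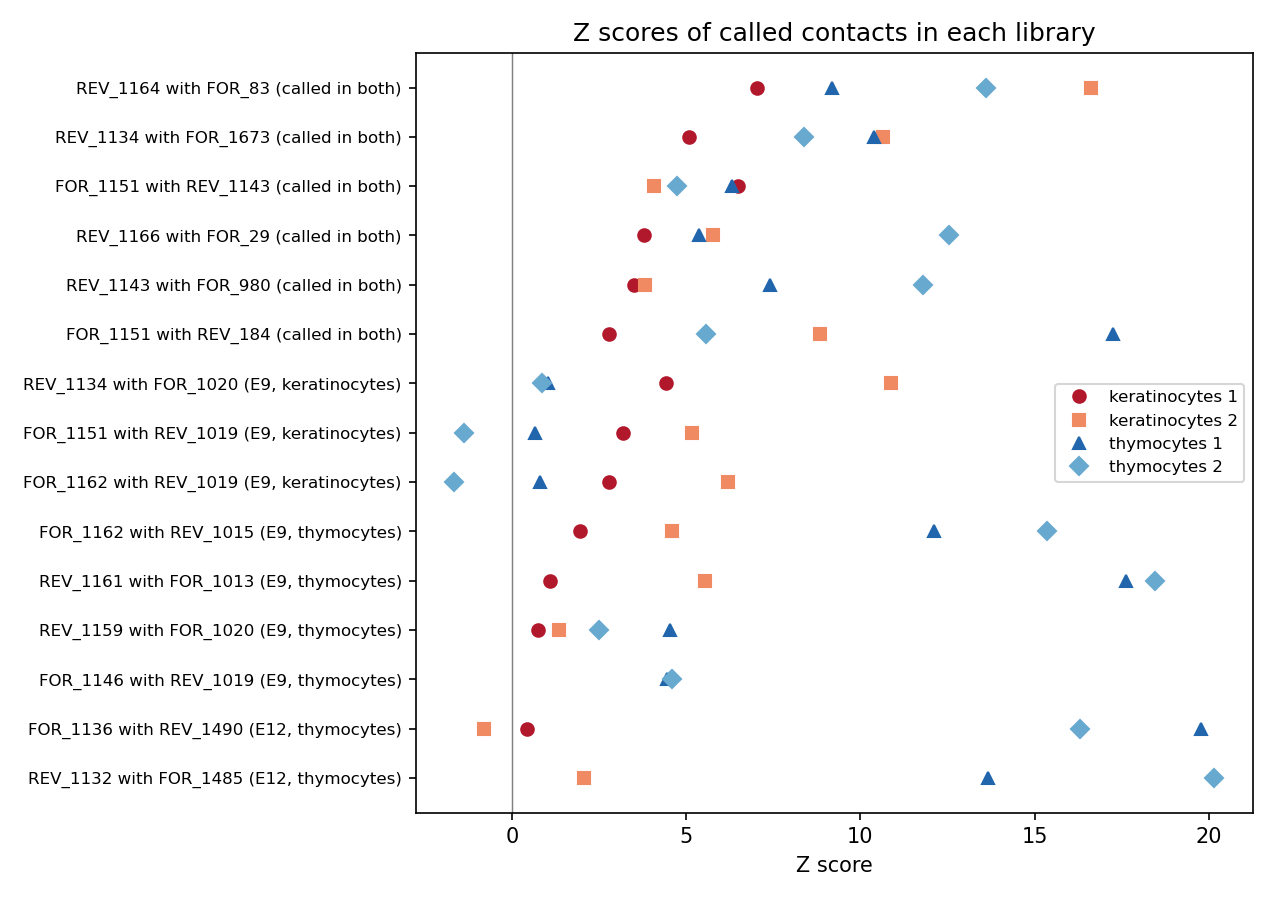
Z score (horizontal axis) of the contacts called in both cell types and of the called contacts with E9 and E12 (vertical axis), with 1 point per library that listed the contact and a colour and shape for each of the 4 libraries. The contact of FOR_1151 with REV_1143 lies between 4.09 and 6.49 in all 4 libraries, while that of FOR_1136 with REV_1490 near E12 lies at 19.78 and 16.29 in thymocytes and at 0.43 and -0.80 in keratinocytes.

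One other inner contact ranked among the strongest in thymocytes. FOR_1151 in E11 and REV_1129, 48 kb away on the far side of S100a11, had Z scores of 10.10 and 9.66 in thymocytes and -0.26 and 2.24 in keratinocytes. The frequencies were 2270 and 2540 against 471 and 543 expected in thymocytes, and 885 and 1120 against 997 and 573 in keratinocytes. Both thymocyte libraries lay above both keratinocyte libraries, with a difference of -8.89 (exact permutation p = 0.333; limma adjusted p = 0.767).

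At 50 to 200 kb, mean Z scores of window contacts were lower than elsewhere in the locus at the same distances. These contacts join the window to its near flanks, and the shorter ones include pairs inside the window. Contacts 50 to 200 kb apart had mean Z scores of -0.375 and 0.0932 in keratinocytes and 0.304 and 0.456 in thymocytes over 153 contacts listed in all 4 libraries. All contacts of the locus at 50 to 200 kb had 0.523, 0.578, 0.692 and 0.715, so every library was lower at the window than over the locus, and the keratinocyte libraries were lower than the thymocyte libraries. By medians this held in keratinocytes, at -0.384 and 0.133 against 0.186 and 0.263 over the locus, and not in thymocytes, at 0.342 and 0.423 against 0.231 and 0.259. Of these contacts 0 of 237 were called in keratinocytes (background 2.99%) and 5 of 258 (1.94%, background 5.78%) in thymocytes. The thymocyte calls include FOR_1162 with REV_1143 at 59 kb and FOR_1144 with REV_1166 at 66 kb, both inside the window. Among well-listed fragments the counts were 0 of 146 and 2 of 172 (1.16%), where all well-listed contacts of the locus, at any distance, had 1.10% and 2.44%. The median frequency of the window's contacts at this distance was 478 and 355 in keratinocytes, where 600 and 369 were expected, and 307 and 304 in thymocytes, where 279 and 277 were expected.

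The flank on the side of the filaggrin-like genes, a family that includes the keratin-binding filaggrin, was lower in both keratinocyte libraries than in both thymocyte libraries. The 100 kb before the S100a11 start include the part of the window before it, so some contacts there had both fragments in the window. There the mean over each library's listed contacts was -0.573 and -0.245 in keratinocytes and 0.163 and 0.233 in thymocytes. At 100 to 200 kb before the start, outside the window, it was -0.409 and -0.153 against 0.291 and 0.178. Contacts with fragments near the filaggrin-like genes had mean Z scores of -0.258 and 0.137 in keratinocytes and 0.199 and 0.394 in thymocytes. Of these 0 of 234 and 0 of 220 were called, where 1.99% and 4.03% of all contacts were. Partners in TAD5, the topologically associating domain across the border next to the window, had -0.959 and -0.128 in keratinocytes and 0.263 and -0.177 in thymocytes over 24 contacts, with 0 of 45 and 0 of 42 called. The rest of TAD4, the domain of the window, had 0.723, 0.408, 0.782 and 0.857 with TAD5, above the window in every library. There 4 of 311 contacts (1.29%) were called in keratinocytes and 7 of 249 (2.81%) in thymocytes. For 45 and 42 contacts, 0 calls were close to these shares. With TAD5 the cell types overlapped.

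The distant S100 genes, 2800 to 3098 kb away in TAD1, were by mean Z score among the partners the window contacted most above expectation. Over 130 contacts with the 90.3 to 90.515 Mb cluster listed in all 4 libraries, mean Z scores were 1.54 and 1.31 in keratinocytes and 1.29 and 0.765 in thymocytes, or 1.42 ± 0.159 and 1.03 ± 0.371 (SD, n = 2 libraries each). All contacts of the locus at these distances had 0.587, 0.746, 0.728 and 0.841, so keratinocyte libraries 1 and 2 and thymocyte library 1 were higher at the window and thymocyte library 2 was lower. Medians over the 130 contacts were lower, at 0.962 and 0.313 in keratinocytes and 0.296 and 0.000372 in thymocytes. Medians of all contacts at these distances were 0.146, 0.155, 0.191 and 0.0269, so thymocyte library 2 was lower by median too. The difference between the cell types, 0.395, was near the spread of the thymocyte libraries (exact permutation p = 0.333). It was 0.133 without thymocyte library 2 and 0.658 without thymocyte library 1, and 0.0352 over the contacts each library listed.

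Calls with the S100 cluster numbered 11 of 367 (3.00%) in keratinocytes, where 1.95% of all contacts at these distances were called, and 7 of 198 (3.54%) in thymocytes, where 3.55% were. Among well-listed fragments they were 9 of 188 (4.79%) in keratinocytes, where 1.42% of such contacts were called, and 3 of 113 (2.65%) in thymocytes, where 2.28% were. The 100 kb window before it, with no S100 gene, had mean Z scores of 0.745 and 1.23 in keratinocytes and 0.779 and 0.983 in thymocytes with the same cluster. The window after it had -0.115, 1.10, 0.852 and 1.20. Keratinocyte library 1 stood highest at the S100a11 to S100a10 window among the 4 windows compared, whereas keratinocyte library 2 had nearly the same value in the window before.

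Within the window, the S100a11 start and E11 differed in their means with the cluster in thymocytes, at 0.523 and 1.42. In keratinocytes they were near each other, at 1.39 and 1.44. S100a11 start fragments had mean Z scores of 2.02 and 0.753 in keratinocytes and 0.577 and 0.469 in thymocytes with the S100 cluster over 55 contacts. Their medians were 1.78 and 0.131 in keratinocytes and -0.0511 and -0.161 in thymocytes. The keratinocyte SD of 0.894 was larger than the difference between the cell types, 0.863. E11 fragments had 1.66 and 1.22 in keratinocytes and 1.24 and 1.61 in thymocytes over 27 contacts, and there the cell types overlapped. Calls were 4 of 131 (3.05%) in keratinocytes and 2 of 88 (2.27%) in thymocytes for the S100a11 start. For E11 they were 4 of 98 (4.08%) and 4 of 39 (10.3%). All contacts at the distances of the S100 cluster contacts had 1.95% and 3.55%.

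Along the cluster, contacts near single S100 genes varied in level. Contacts near S100a14, an epithelial S100 gene, had mean Z scores of 2.74 and 1.69 in keratinocytes and 0.934 and 0.875 in thymocytes over 21 contacts, and those near S100a16 had 3.46 and 2.50 against 1.19 and 0.390 over 9. Medians for S100a14 were 2.89 and 0.37 in keratinocytes against 0.21 and 0.0425 in thymocytes. For S100a16 they were 3.69 and 0.37 against 0.223 and 0.0283, so keratinocyte library 2 was far lower by median than by mean. S100a8 and S100a9 encode the subunits of calprotectin. Contacts near S100a8 had means of 0.579 and 1.36 in keratinocytes and 1.52 and 1.61 in thymocytes, but medians of 0.158 and 0.444 against 0.279 and 0.323, which overlapped. For S100a9 the means were 0.672 and 1.63 against 3.02 and 1.23, and for S100a7a 0.370 and 0.658 against 0.151 and 1.17, and the cell types overlapped for both. These sets hold 6 to 21 contacts that share fragments, and differences between the genes were not tested.

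Single contacts with the S100 cluster showed how much the libraries of a cell type varied. FOR_1144, downstream of S100a11, and REV_132 at S100a14 and enhancers E2 and E3 had Z scores of 4.01 and 12.92 in keratinocytes and -0.66 and 0.04 in thymocytes. FOR_1142 at the S100a11 end and REV_143 near E4 had 4.41 and 3.04 in keratinocytes and -0.20 and -0.32 in thymocytes. FOR_1144 and REV_155, near S100a3 and S100a4, had 4.85 and 4.62 in keratinocytes and 3.41 in the 1 thymocyte library that listed it. In the first 2 of these the cell types did not overlap, at an exact permutation p of 0.333 and limma adjusted p of 0.767 each.

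E11 itself contacted both ends of the cluster. FOR_1151 and REV_132 had Z scores of 3.25 and 9.93 in keratinocytes and 4.22 and 0.03 in thymocytes, called in keratinocytes. FOR_1151 and REV_184 at S100a9 had 2.80 and 8.84 in keratinocytes and 17.24 and 5.58 in thymocytes, called in both. FOR_1151 and REV_177 near S100a8 had -0.56 and 0.61 in keratinocytes and 3.89 and 9.18 in thymocytes, called in thymocytes. The same E11 fragment was thus called with different S100 genes, and in the first contact thymocyte library 1 lay within the keratinocyte range.

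In thymocytes, REV_1132 near the S100a11 start and FOR_171 at S100a7a, which encodes a psoriasin-like protein, had Z scores of 16.11 and 9.16, and keratinocyte library 2 had 8.62 while keratinocyte library 1 did not list the contact. FOR_1162 and REV_164, near S100a5, S100a6 and E7, had 3.99 and 14.61 in keratinocytes and 8.02 and -1.45 in thymocytes. FOR_1151 and REV_134 near S100a14 and S100a16 had 16.69 and 7.71 in thymocytes and 5.03 in the 1 keratinocyte library that listed it. A contact called in 1 cell type was in each of these 3 cases also past the q-value threshold in 1 library of the other.

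**Figure D3:**
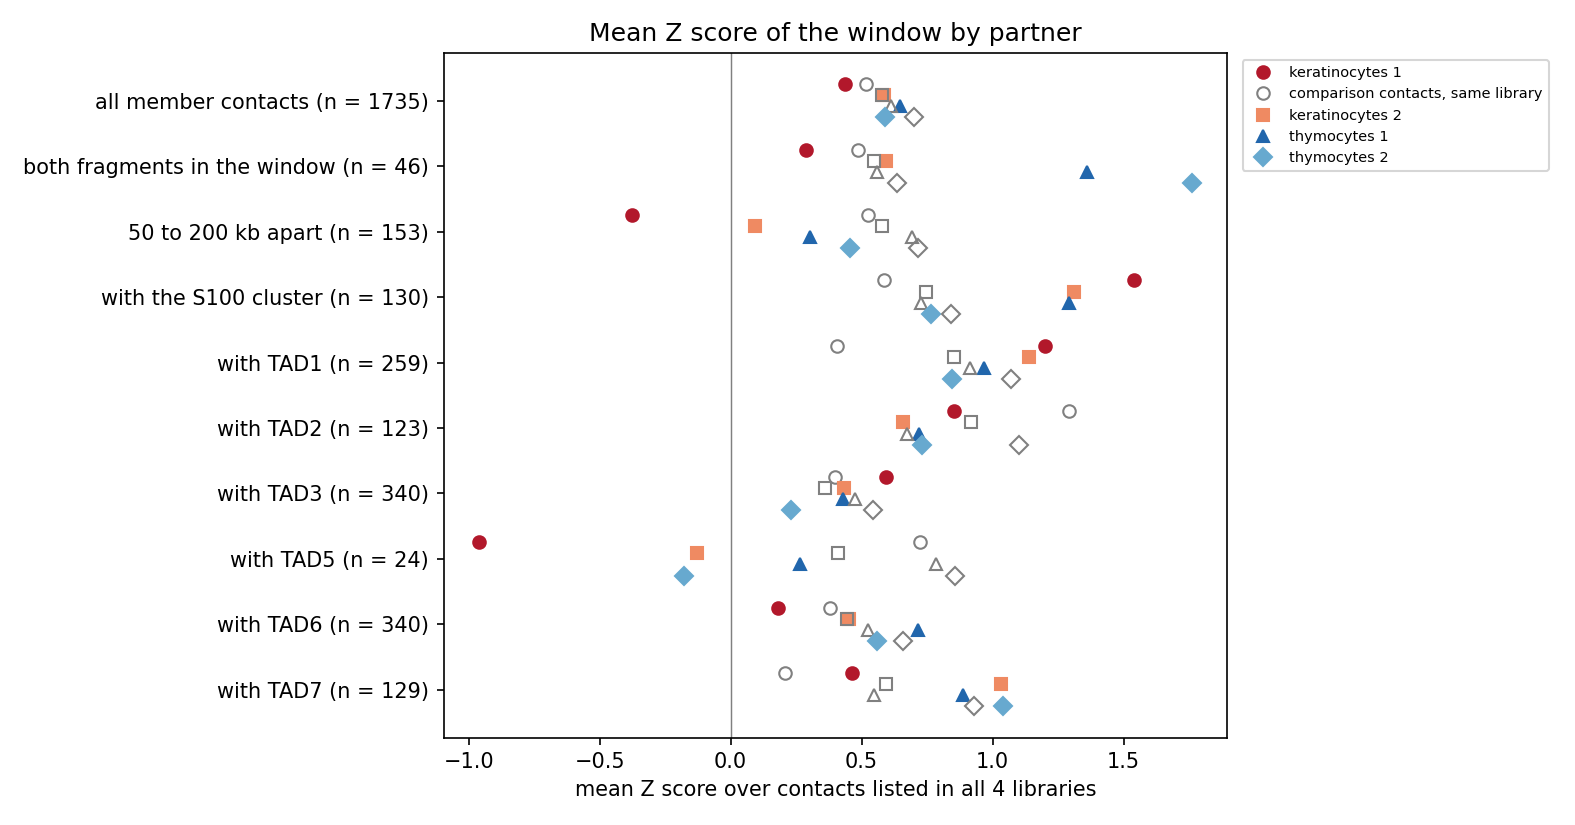
Mean Z score of window contacts in each library (horizontal axis) by the distance, region or domain of the partner fragment (vertical axis), over contacts listed in all 4 libraries, with 1 coloured point per library and an open grey point for the comparison contacts of that library. The comparison contacts are all contacts of the locus, those at the same distances, or, for domains, those of the rest of TAD4. The inner contacts lie at 1.36 and 1.76 in thymocytes and at 0.286 and 0.594 in keratinocytes, whereas those with the S100 cluster lie between 0.765 and 1.54 in all 4 libraries.

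Among the other domains, TAD1, which holds the S100 cluster, and TAD3 had higher means in keratinocytes, and TAD6 had higher means in thymocytes. TAD3 and TAD6 lie on opposite sides of the window. With TAD3 the window had mean Z scores of 0.594 and 0.432 in keratinocytes and 0.429 and 0.231 in thymocytes, a narrow separation. With TAD2 and TAD7 the cell types overlapped. With TAD1 the window had mean Z scores of 1.20 and 1.14 in keratinocytes and 0.967 and 0.845 in thymocytes, and the rest of TAD4 had 0.407 and 0.854 in keratinocytes and 0.913 and 1.07 in thymocytes. Calls with TAD1 were 24 of 932 (2.58%) in keratinocytes and 16 of 410 (3.90%) in thymocytes, where all TAD4 fragments with TAD1 had 2.27% and 4.32%. With TAD6 the window had 0.180 and 0.453 in keratinocytes and 0.717 and 0.558 in thymocytes. Calls with TAD6 were 7 of 786 (0.891%) in keratinocytes and 30 of 544 (5.51%) in thymocytes, and all TAD4 fragments with TAD6 had 0.987% and 4.37%. The lower share in keratinocytes thus held for TAD4 as a whole. Among well-listed window fragments the TAD6 calls were 1 of 427 (0.234%) in keratinocytes and 6 of 331 (1.81%) in thymocytes. All well-listed contacts of the locus had 1.10% and 2.44%, so both shares were below that level.

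The other gene groups of the complex held small numbers of calls with the window, to be read against the 1.99% and 4.03% of all contacts called in keratinocytes and thymocytes. Near the Sprr genes, which encode cross-linked envelope proteins, 4 of 167 contacts (2.40%) were called in keratinocytes and 3 of 134 (2.24%) in thymocytes. Near involucrin, an early envelope scaffold, the counts were 2 of 31 (6.45%) and 1 of 23 (4.35%), and near loricrin, the main envelope protein, 0 of 11 and 0 of 4. Near the Lce1 genes they were 2 of 245 (0.816%) and 7 of 201 (3.48%), and near the Lce3 genes and Crct1 2 of 137 (1.46%) and 5 of 120 (4.17%). Near Them4 and Them5, which encode acyl-CoA thioesterases, they were 0 of 65 and 1 of 36, and near the Tdpoz genes 0 of 23 and 0 of 12. Each of these groups thus held 7 calls or fewer in a cell type.

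Among the other enhancers, E9 lies in TAD4 between the Lce genes and the filaggrin-like genes. By count it had the most calls in thymocytes and as many as E2 in keratinocytes, with the most contacts listed in each cell type. It had 3 of 102 contacts (2.94%) called in keratinocytes and 4 of 90 (4.44%) in thymocytes, with 0 contacts called in both. By share it was below E2 at 5.56% and 5.71% and E3 at 7.69% and 6.25%, which had fewer contacts listed. In keratinocytes, REV_1134 upstream of S100a11 and FOR_1020 had Z scores of 4.43 and 10.87, against 1.04 and 0.86 in thymocytes. FOR_1151 in E11 and REV_1019 had 3.20 and 5.18, against 0.66 and -1.38, and FOR_1162 and REV_1019 had 2.80 and 6.21, against 0.82 and -1.65. In all 3 the keratinocyte libraries lay above both thymocyte libraries.

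In thymocytes 3 of the 4 E9 contacts were made by fragments beyond S100a10. REV_1161 and FOR_1013, 468 kb apart, had Z scores of 17.62 and 18.44 in thymocytes and 1.10 and 5.53 in keratinocytes, with frequencies of 649 and 710 against 91.5 and 93.6 expected in thymocytes and 423 and 490 against 271 and 150 in keratinocytes. The neighbouring FOR_1162 and REV_1015 had 12.11 and 15.36 in thymocytes and 1.95 and 4.60 in keratinocytes. REV_1159 and FOR_1020 had 4.54 and 2.51 against 0.75 and 1.35, and FOR_1146, between the genes, and REV_1019 had 4.45 and 4.59 and were unlisted in keratinocytes. For the first of these the difference of -14.72 had an exact permutation p of 0.333 and a limma adjusted p of 0.767.

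E12, near Tuft1 in TAD6, had 2 of 10 window contacts (20%) called in thymocytes, both with S100a11 start fragments. In keratinocytes 0 of 20 were called. Over all contacts 4.03% were called in thymocytes and 1.99% in keratinocytes, so for 20 contacts 0 calls were close to the background. FOR_1136, the first fragment past the S100a11 start, and REV_1490 at 1137 kb had corrected frequencies of 324 and 124 in thymocytes, where 37.0 and 18.5 were expected, and of 129 and 43.9 in keratinocytes, where 105 and 64.3 were. The Z scores were 19.78 and 16.29 in thymocytes and 0.43 and -0.80 in keratinocytes. REV_1132 and FOR_1485 inside Tuft1, also 1137 kb apart, had 13.67 and 20.16 in thymocytes and 2.08 in the 1 keratinocyte library that listed it. The first contact differed by -18.22 between the cell types, with no overlap, and had a limma adjusted p of 0.767.

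Enhancers E8, E14 and E15 took part in some of the strongest keratinocyte calls. FOR_1142 at S100a11 and REV_1672 near Cdc42se1, Mllt11 and E15, 1700 kb apart, had Z scores of 7.64 and 8.02 in keratinocytes and 2.12 and 23.17 in thymocytes. REV_1134 and the next fragment, FOR_1673 in Cdc42se1, which encodes an effector of CDC42, had 5.07 and 10.66 in keratinocytes and 10.38 and 8.37 in thymocytes. Both contacts thus had positive Z scores in every library, and the first missed the q-value threshold in thymocyte library 1. Contacts near E15 as a set were less clear, with 11 listed in all 4 libraries. Their means were 1.04 and 1.89 in keratinocytes and 1.58 and 2.72 in thymocytes, but their medians were -0.581 and 0.323 against 0.821 and -0.2. Calls near E15 were 2 of 36 (5.56%) in keratinocytes and 1 of 15 (6.67%) in thymocytes, where all contacts had 1.99% and 4.03%.

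REV_1150 in E11 and FOR_1595 in Pi4kb near E14, 1421 kb apart, had Z scores of 6.50 and 13.54 in keratinocytes and were listed in neither thymocyte library. REV_1134 and FOR_822 at Sprr1a and E8, 1025 kb apart, had 7.22 and 4.90 and were also unlisted in thymocytes. For these contacts the files give no thymocyte value to compare. Over all enhancers, calls were found at E2, E3, E4, E5, E6, E7, E9, E14 and E15 in both cell types, at E8 in keratinocytes and at E12 in thymocytes, and at neither for E1, E10 and E13. E16 had 0 of 8 contacts called in keratinocytes and no contact listed in both thymocyte libraries.

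The remaining contacts among the 10 strongest of each cell type had partners outside these sets. REV_1164 and FOR_83 in Ints3, which encodes an Integrator subunit, were 3178 kb apart and high in all 4 libraries, at 7.02 and 16.61 in keratinocytes and 9.18 and 13.61 in thymocytes. In keratinocytes FOR_1165 and REV_797 near Sprr2f and Sprr2g had 5.77 and 9.76, with 5.82 in thymocyte library 2. REV_1150 in E11 and FOR_7 in Nup210l had 4.64 and 8.68, with -1.62 in thymocyte library 2. REV_1145 and FOR_1475 in Tuft1 had 4.61 and 4.85, with 2.72 in thymocyte library 2, and FOR_1149 and REV_839 had 4.46 and 7.26 and were unlisted in thymocytes. All 4 of these keratinocyte contacts were unlisted in thymocyte library 1.

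In thymocytes REV_1129 and FOR_1426 in Tdrkh had Z scores of 15.38 and 12.27, with -0.98 in keratinocyte library 1. REV_1134 and FOR_1541 near Pogz had 10.17 and 12.09, with 2.78 in keratinocyte library 1. FOR_1162 and REV_679 had 8.79 and 19.98, against 1.59 and 2.13 in keratinocytes. Of these 3, only the last was listed in all 4 libraries, and its cell types did not overlap.

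The 6 contacts called in both cell types were, beside the 4 given above (FOR_1151 with REV_1143 and with REV_184, REV_1164 with FOR_83, and REV_1134 with FOR_1673), REV_1166 with FOR_29 and REV_1143 with FOR_980. REV_1166 and FOR_29, 3399 kb apart, had Z scores of 3.80 and 5.76 in keratinocytes and 5.36 and 12.55 in thymocytes. REV_1143 downstream of S100a11 and FOR_980 near Crct1 and Lce1m, 514 kb apart, had 3.51 and 3.82 in keratinocytes and 7.42 and 11.80 in thymocytes. Of the 6, 4 used FOR_1151, REV_1134 or REV_1143.

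Calls were spread unevenly over the fragments. The E11 fragment FOR_1151 had the most in both cell types, with 10 of 185 listed contacts in keratinocytes and 16 of 185 in thymocytes. Over all contacts of the locus 1.99% and 4.03% were called. REV_1134, upstream of S100a11, had 6 of 117 in keratinocytes, and REV_1143, downstream of it, had 11 of 165 in thymocytes. Some fragments with fewer listed contacts had a higher share, such as REV_1145 with 4 of 31 in keratinocytes and REV_1148 with 8 of 41 in thymocytes. FOR_1151 and the second fragment of each cell type held 16 of the 67 keratinocyte calls (23.9%) and 26 of the 104 thymocyte calls (25%). Of the 27 fragments with contacts listed in both keratinocyte libraries 5 had no call, and of the 30 with contacts listed in both thymocyte libraries also 5.

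**Figure D4:**
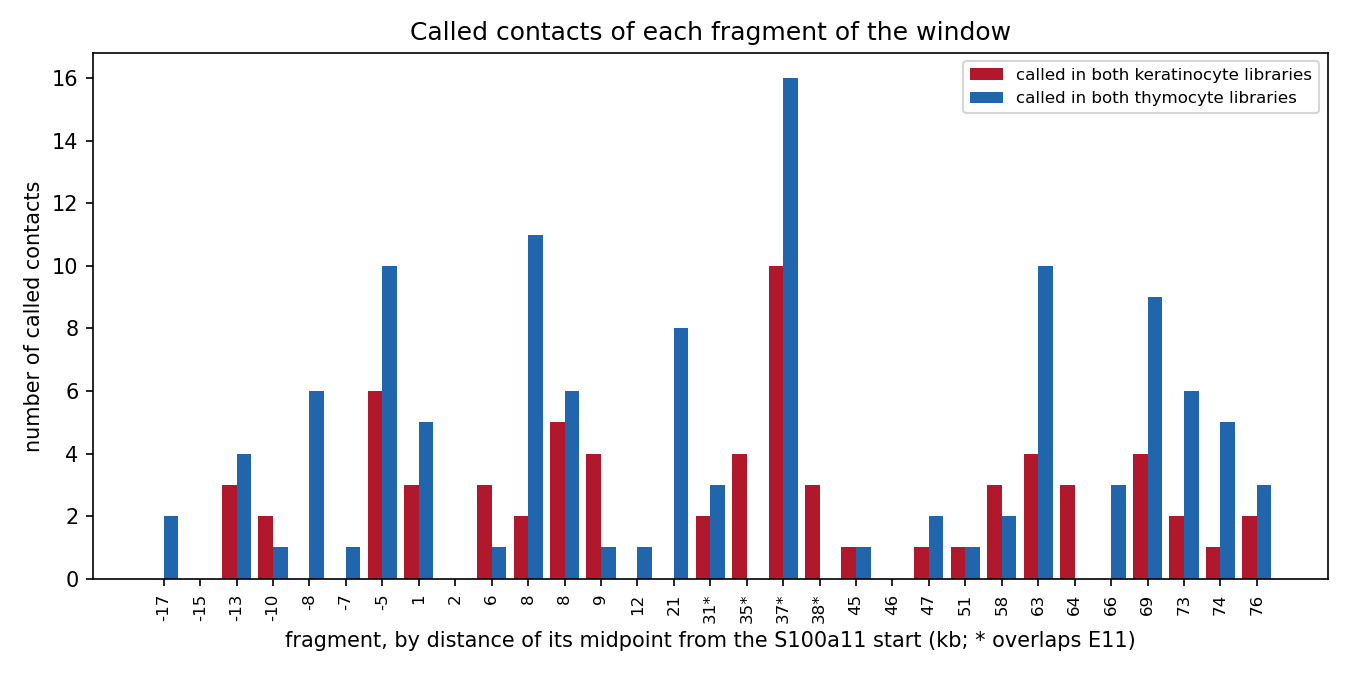
Number of contacts called in both libraries of a cell type (vertical axis) for each of the 31 fragments of the window by distance of its midpoint from the S100a11 start (horizontal axis, kb, with an asterisk where it overlaps E11), with 1 bar per cell type. FOR_1151 inside E11 has the highest bars, at 10 in keratinocytes and 16 in thymocytes. Bars are counts and are not scaled by the contacts listed for each fragment.

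As sets, E11 and S100a11 start fragments had similar levels over the whole locus. E11 fragments had mean Z scores of 0.385 and 0.424 in keratinocytes and 0.553 and 0.564 in thymocytes over 350 contacts, a difference of -0.155. The 4 fragments that overlap E11 had 0.468 and 0.845 against 1.09 and 0.925, a difference of -0.353. S100a11 start fragments had 0.490 and 0.526 against 0.543 and 0.585 over 692 contacts, a difference of -0.0558 that was 0.0227 when medians were taken and 0.0401 among well-listed fragments. For E11 the difference was -0.0471 among well-listed fragments and -0.331 over the contacts each library listed.

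Calls at E11 were 22 of 1104 (1.99%) in keratinocytes and 30 of 536 (5.60%) in thymocytes, and at the fragments that overlap it 19 of 589 (3.23%) and 19 of 204 (9.31%). At the S100a11 start they were 25 of 1493 (1.67%) and 40 of 1203 (3.33%). Well-listed E11 fragments had 5 of 468 (1.07%) and 9 of 381 (2.36%), where all well-listed contacts of the locus had 1.10% and 2.44%.

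**Figure D5:**
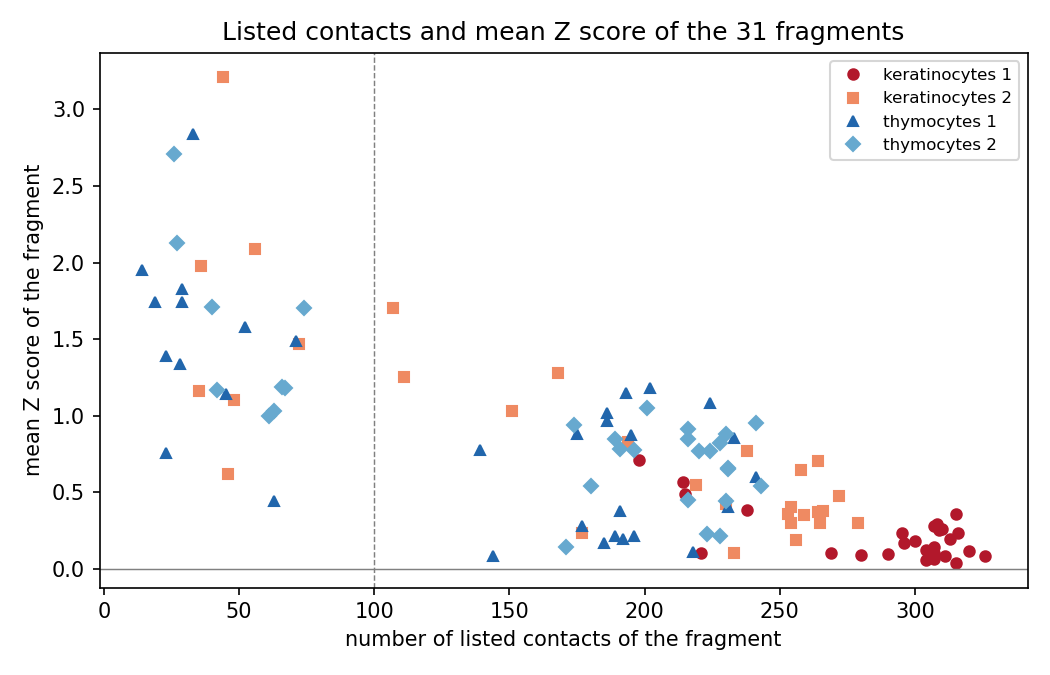
Mean Z score of each window fragment (vertical axis) against the number of its contacts listed (horizontal axis), with a colour and shape per library, 1 point per fragment and a dashed line at 100 contacts. The highest means are at fragments with few listed contacts, as with FOR_1156 in keratinocyte library 2, which had 44 contacts and a mean Z score of 3.21.

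A test of each contact separated no window contact between the cell types. In limma, fitted to the Z scores of all 23395 contacts listed in the 4 libraries, 0 contacts of the locus (0%) and 0 of the 1735 window contacts had a Benjamini-Hochberg adjusted p under 0.05, and the lowest adjusted p was 0.767. An unadjusted p under 0.05 was found for 100 window contacts (5.76%), 49 higher and 51 lower in keratinocytes, and for 5.11% of all contacts. The median difference was -0.13 in the window and -0.02 over all contacts, and 46.2% of window contacts and 49.3% of all contacts were higher in keratinocytes. In simulated data of 23395 contacts, 0 of 200 contacts shifted by 4 or by 8 Z units were recovered and 138 of 200 shifted by 16, with 5 false calls. The simulation shuffled the spreads between contacts and tried only these shifts, so it sets no exact limit for a given contact. The absence of passing contacts therefore does not show that the cell types were alike.

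The window contacts with the largest moderated statistics did not pass either, each at a limma adjusted p of 0.767. Higher in keratinocytes were FOR_1156 near E11 with REV_670 (0.69 and 1.61 against -1.96 and -1.56), REV_1164 with FOR_919 near Lce1g and Lce1h (0.96 and 2.33 against -2.09 and -1.04), and FOR_1165 with REV_870 (0.31 and 2.17 against -2.02 and -1.46). Lower in keratinocytes were FOR_1151 in E11 with REV_1038 (-2.21 and -2.16 against 0.17 and 0.28), REV_1164 with FOR_992 (-1.16 and -0.99 against 1.97 and 1.92), and FOR_1144 with REV_11 in Nup210l (-0.79 and -1.40 against 2.30 and 1.74). None of these 6 was called in either cell type.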

How the data were processed

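The 5C libraries were sequenced by the authors and their reads aligned with Bowtie to a pseudo-genome of all probes (mm9), keeping unique alignments. The authors removed poorly performing probes and single extreme contacts and corrected each probe for coverage in each library separately. Corrected frequencies are thus not scaled between libraries, and contacts of removed probes are unlisted. The deposited files hold, per contact, a distance in kb (a value of its own kind, unit other), 3 signal values (the corrected frequency, the frequency expected at that distance from a Loess fit and its standard deviation), a Z score, and the p-value of a Weibull fit with its q-value, all made by the authors. The Z score recomputed from the 3 signal values differed by at most 1e-13. Read counts are not in the tables used here, so depth is unknown and no counting interval was given.

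From these values a contact was called where both libraries of a cell type had q under 0.05. Mean Z scores were taken over contacts listed in all 4 libraries, with a two-sided exact permutation test over libraries. limma 3.58.1 (R 4.3.3; lmFit, then eBayes with a trend) was fitted to the Z scores of all 23395 such contacts without blocks, with Benjamini-Hochberg adjustment over all of them, and was tested on simulated data. Figures and tables were made with Python 3.11.15. Fragments within 10 kb of a transcription start or enhancer were assigned to it; enhancer and domain coordinates were those the study gives, gene models were GENCODE on mm9, and promoter sequences came from the genome of the same build. Of 63 genes in the partner groups, 60 were matched. Contacts named were the 10 of each cell type with the highest lower Z score, the called contacts of E11 with the S100a11 start, 3 in each direction by moderated statistic, and called contacts near listed genes or enhancers. Members, lists and rules were chosen with earlier results of these data known. Restriction to fragments with at least 100 listed contacts, removal of 3 fragments, the comparison inside the window and crossed replicate numbers were added after seeing the data. Alternatives were other thresholds, distances, summaries and leaving out each library.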

Additional observations from a re-analysis of the deposited data

How the results depend on the processing

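The counts of called contacts depended on the rule. Against 67 keratinocyte calls, there were 38 at a q-value threshold of 0.01, 24 among fragments with at least 100 listed contacts in every library, and 388 to 641 when 1 library alone decided the call. Against 104 thymocyte calls, there were 29 among those fragments, 68 without FOR_1151, REV_1134 and REV_1143, and 498 to 729 from 1 library alone. Other thresholds and distances kept both counts within 1.5 times. The difference of mean Z scores over all window contacts, -0.105, was 0.0024 as a median and -0.00858 among well-listed fragments. The difference inside the window was -0.359 as a median. That of the S100a11 start was 0.0227 as a median and 0.0401 among well-listed fragments. The cause was not tested. Leaving out each library in turn gave differences (keratinocytes minus thymocytes) from -0.18 to -0.03 over all window contacts, 0.133 to 0.658 with the S100 cluster, -0.174 to -0.135 for E11, -0.0767 to -0.035 for the S100a11 start and -1.32 to -0.923 inside the window. limma passed 0 window contacts in each of these. Same-numbered libraries did not deviate together (correlation -0.0937 over all contacts, -0.167 over the window), so the numbers were not taken to pair them. With the replicate block the differences were -0.105, 0.395, -0.155, -0.0558 and -1.12, where the smallest p by sign flips is 0.5, and limma passed 0 contacts. With crossed numbers it passed 3 of 23395 contacts, of which 0 lay in the window. With 2 libraries per cell type and unknown depth, simulated shifts of 4 and 8 Z units in single contacts were not recovered. The simulation shuffled the spreads between contacts, so it gives no exact limit for these libraries.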
